A study of Mus musculus with 13 samples.

Results

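The genes described are 8 neutrophil granule proteins, out of 31053 genes in a single-cell matrix of mouse lung. They were taken by symbol and fall into 2 sets of 4. The primary granule set holds Elane (neutrophil elastase), Mpo (myeloperoxidase), Prtn3 (proteinase 3) and Ctsg (cathepsin G). The later granule set holds Camp (the cathelicidin antimicrobial peptide), Ngp (neutrophilic granule protein), Ltf (lactoferrin, which binds iron) and Lcn2 (lipocalin-2, which binds bacterial siderophores). The study used porcine pancreatic elastase (PPE), which digests elastin when it is put into the airways, to bring about emphysema in C57BL/6 mice. The labels name 13 lung samples, of which 4 are single samples titled Asthma, Control, PPE-emphysema and PPE-recovery, and 9 are 3 samples each of the groups Acute injury, Con and emphysema. The barcodes of the matrix carry 7 library numbers and no sample name, so no library could be given a group and no comparison of the mouse models was made. Libraries 4, 5 and 6 are shown beside libraries 1, 2, 3 and 7, by number. Whether any of the 7 are replicates of 1 group is not known, and no test was run.

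Neutrophils make their granules in order as they mature in the bone marrow. Promyelocytes make the serine proteases and the peroxidase of the primary (azurophil) granules. Myelocytes and metamyelocytes then make the proteins of the specific granules, and the gelatinase granules follow. The transcripts of the first set fall as those of the next set rise. A neutrophil in the blood or in tissue holds the proteins while it has lost most of the transcripts. S100a8 and S100a9, which encode the subunits of calprotectin, are carried by maturing and mature neutrophils. S100a8 was therefore used as an outside measure. A cell was called S100a8-high when S100a8 made up at least 1% of its UMIs (unique molecular identifiers, each marking 1 captured RNA molecule).

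Of 37344 barcodes, 33618 had at most 10% mitochondrial UMIs and were kept, and 2218 of these were S100a8-high. Libraries 1 to 7 held 82, 423, 532, 306, 201, 309 and 365 S100a8-high cells. Between 94.3% and 100% of them, depending on the library, fell in clusters named neutrophil-like. S100a8 and S100a9 were among the markers behind that name and were not left out of clustering. This share is therefore partly built in. In library 4, 6 of the 306 were in monocyte-like clusters. The tissue label did not hold equally for all libraries. Sftpc, the surfactant protein C of alveolar type 2 cells, stood at 2674 to 9212 CPM (counts of the gene per 1000000 UMIs) in libraries 1, 2, 3 and 7. It was at 0 in libraries 4 and 5 and at 0.0660 CPM in library 6. The 4 globin genes together took 353436 to 406473 CPM in libraries 4, 5 and 6 and 96.3 to 310 CPM in the others. The S100a8-high cells were also shallower in libraries 1, 2, 3 and 7, with medians of 2278 to 3192 UMIs against 4947 to 8567 in libraries 4, 5 and 6. The part of these differences in the granule values was not tested. Any 2 libraries shared between 2 and 17 barcode sequences, at most 0.367% of the smaller library. In all that follows, intervals are exact 95% intervals and cover counting error only, not the spread between animals.

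On GRCm38, Prtn3 (chr10:79874476-79883174) and Elane (chr10:79886247-79888215) are neighbours on the same strand, with 3072 bases between them. Camp (chr9:109847379-109849617), Ngp (chr9:110419747-110423012) and Ltf (chr9:111019271-111042767) lie on chromosome 9, with 570129 and 596258 bases between neighbours. Mpo is on chromosome 11 (chr11:87793581-87804413), Ctsg on chromosome 14 (chr14:56099881-56102574) and Lcn2 on chromosome 2 (chr2:32384633-32388252). All 8 are protein-coding. Promoter windows from RefSeq (GRCm38.p6), from 250 bases before to 50 bases after the gene start, were found for all 8. Below are 4 of them. The starts used by RefSeq for these 4 lie inside the genes as GENCODE gives them, farthest for Prtn3. Distances from the start are from the RefSeq starts. Elane and Prtn3 are shown because they are neighbours of the same set that were found in different numbers of cells, and Camp and Ngp because their transcripts were found in the same few cells. Capitals mark matches on either strand to motifs of myeloid transcription factors, namely GAGGAA for PU.1, CAACNG for MYB, TTGCNNAA for C/EBP factors and TGTGGT for RUNX factors, and to the TATA box, TATAAA.
Elane: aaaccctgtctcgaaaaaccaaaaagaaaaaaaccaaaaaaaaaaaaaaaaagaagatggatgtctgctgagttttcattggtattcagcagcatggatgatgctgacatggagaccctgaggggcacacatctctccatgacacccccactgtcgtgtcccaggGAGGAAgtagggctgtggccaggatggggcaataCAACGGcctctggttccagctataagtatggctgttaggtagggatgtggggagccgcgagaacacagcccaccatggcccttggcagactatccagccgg
Prtn3: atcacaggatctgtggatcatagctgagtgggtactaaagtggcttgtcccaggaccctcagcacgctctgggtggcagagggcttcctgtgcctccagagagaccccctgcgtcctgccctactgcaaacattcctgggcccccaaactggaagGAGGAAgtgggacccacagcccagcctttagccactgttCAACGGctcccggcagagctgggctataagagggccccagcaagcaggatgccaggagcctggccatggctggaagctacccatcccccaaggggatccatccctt
Camp: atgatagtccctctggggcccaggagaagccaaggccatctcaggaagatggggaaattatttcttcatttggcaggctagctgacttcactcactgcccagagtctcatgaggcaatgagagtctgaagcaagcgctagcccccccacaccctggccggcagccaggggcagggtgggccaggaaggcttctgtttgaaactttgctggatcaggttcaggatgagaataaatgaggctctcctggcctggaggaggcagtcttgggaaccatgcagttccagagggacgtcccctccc
Ngp: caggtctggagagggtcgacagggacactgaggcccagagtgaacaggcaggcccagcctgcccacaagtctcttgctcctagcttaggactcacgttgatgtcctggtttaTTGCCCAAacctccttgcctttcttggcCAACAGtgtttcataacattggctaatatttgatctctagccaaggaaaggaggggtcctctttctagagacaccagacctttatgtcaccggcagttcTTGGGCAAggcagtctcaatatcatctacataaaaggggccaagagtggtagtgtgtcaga

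The windows are chr10:79886062-79886361 (+) for Elane, chr10:79879417-79879716 (+) for Prtn3, chr9:109849407-109849706 (-) for Camp and chr9:110419558-110419857 (+) for Ngp. Elane and Prtn3 held the same pair of matches at like places. The PU.1 letters began 85 bases before the start in Elane and 95 in Prtn3, and the MYB letters 51 and 56 bases before it. Ngp held the C/EBP letters at 138 and 11 bases before the start and the MYB letters at 110. Camp held none of these letters in its window. Among 27025 promoter windows of the same length, PU.1 letters were found in 28.3%, MYB letters in 35.1%, C/EBP letters in 10.8%, RUNX letters in 16.9% and TATAAA in 14.2%. Such matches describe the sequence and are not evidence of binding.

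Camp, Ngp and Lcn2 were higher in S100a8-high than in other cells of every library, and Ltf in every library but library 6. There Ltf stood at 1.07 CPM in S100a8-high cells and 2.67 CPM in other cells. Of the 309 S100a8-high cells of library 6, 2 had a UMI of Ltf and 3 a UMI of Camp. The levels differed widely between libraries. Camp stood at 1871, 298, 1215, 9936, 248, 11.3 and 1550 CPM in the S100a8-high cells of libraries 1 to 7. Library 4 was the highest and library 6 the lowest, and the counting intervals of libraries 2 and 5 overlapped. Few cells stand behind these values outside library 4. Without the 1 cell richest in Camp, the levels were 1284, 0.674, 676, 9658, 60.0, 1.08 and 878 CPM. Nearly all of the level of library 2 thus came from 1 of the 2 cells with a Camp UMI. The values left for libraries 2 and 6 rest on too few UMIs to be put in order. Ngp followed the same course, with 1933, 535, 1278, 10200, 353, 32.2 and 2180 CPM. Without the richest cell of each library it stood at 1265, 84.2, 803, 9987, 79.2, 10.25 and 1530 CPM. Ltf stood at 670, 101, 387, 3040, 124, 1.07 and 587 CPM, again highest in library 4 and lowest in library 6, and without the richest cell at 312, 3.37, 283, 2976, 9.60, 0.540 and 411 CPM. Library 4 was the highest for all 3 genes with and without that cell, and the order of the others cannot be read from counting intervals alone. Lcn2 stood at 2332, 742, 1171, 5247, 952, 1435 and 2258 CPM, and at 1589, 580, 1068, 5164, 866, 1404 and 2083 CPM without the richest cell. Its range across libraries was narrower, and library 6, the lowest for the other 3 genes, stood in the middle for Lcn2. The 2 sets of libraries overlapped for all 4 genes, since library 4 was above all others and, for Camp, Ngp and Ltf, library 6 was below all others. In S100a8-high cells, 0 of the 5 members with enough counts to be compared had libraries 4, 5 and 6 all above, or all below, the other 4 libraries. Of 5806 genes compared in the same way, 4.32% were above and 21.5% below. Over all kept cells it was again 0 of 5 members, where 2.33% of 7754 genes were above and 70.7% below.

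**Figure D1:**
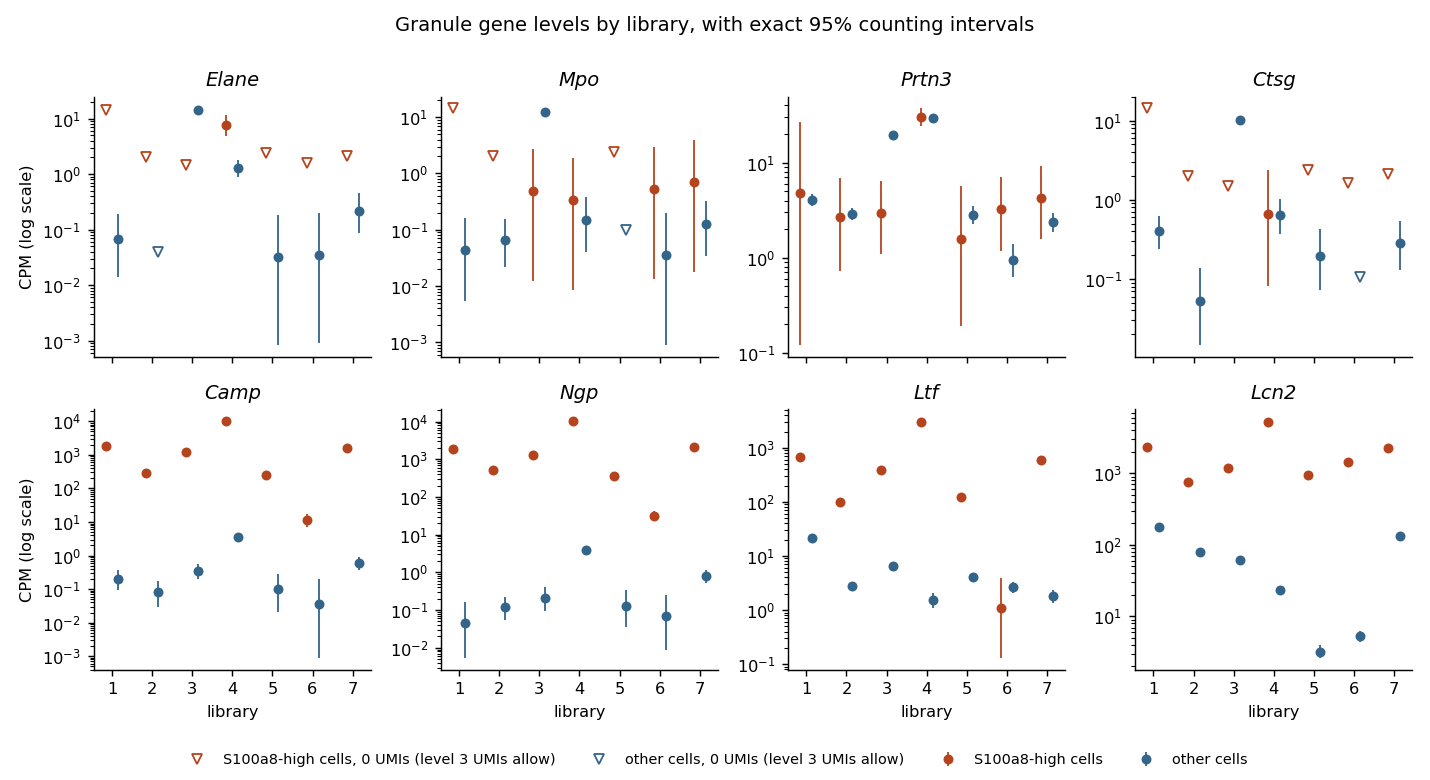
Level of each gene in CPM (log scale) in each of 7 libraries, for S100a8-high cells and other cells. Points carry exact 95% counting intervals, and open triangles mark libraries with no UMI at the level that 3 UMIs would give. Camp and Ngp of S100a8-high cells lie far above those of other cells in every library and reach 9936 and 10200 CPM in library 4, while the high Elane, Mpo and Ctsg values of other cells in library 3 come from 2 cells.

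The other listed genes were compared between the sets of libraries in the same way, against the 21.5% of all genes that were lower in libraries 4, 5 and 6 and the 4.32% that were higher. Of 7 mature neutrophil genes in S100a8-high cells, 5 were lower in each of libraries 4, 5 and 6 than in each of libraries 1, 2, 3 and 7, and 0 were higher. Il1b ran from 673 to 2449 CPM against 14378 to 16307 CPM. G0s2, an inhibitor of lipid breakdown, ran from 70.9 to 120 CPM against 5255 to 9614 CPM. Cxcl2, a chemokine that draws neutrophils, Csf3r and Clec4d were the other 3. Ly6g and Cxcr2 did not separate the sets. Ly6g stood at 365, 65.0 and 134 CPM in libraries 4, 5 and 6 and at 56.2 to 108 CPM in the others. Cxcr2 stood at 514, 1509 and 1401 CPM against 873 to 1842 CPM. Of 10 other specific granule genes, Pglyrp1, a peptidoglycan recognition protein, was higher and 0 were lower. Of 8 genes of gelatinase granules and secretory vesicles 3 were lower, Mmp9, Adam8 and Slc11a1, and 0 were higher. Of 4 genes that serve primary granules, Srgn was lower. Of 6 transcription factors 2 were lower, Cebpb and Spi1. Of 3 cycling genes 1 was lower, and of 6 monocyte genes 1 was higher and 1 lower. The lists are short and were chosen with earlier results of these data known. Their counts describe the listed genes and are not read as a result for a whole class. All 4 globin genes were higher, and the part of red cell RNA in these differences was not tested.

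In the other cells Camp and Ngp were close to absent. Camp stood between 0.0351 and 0.596 CPM outside library 4 and at 3.57 CPM in library 4. Ngp stood between 0.0444 and 0.815 CPM outside library 4 and at 3.95 CPM in it. Of all Camp and Ngp UMIs, 99.6% were in S100a8-high cells. In library 4, cells with no S100a8 UMI had 3.64 CPM of Camp and 4.60 CPM of Ngp, and 6.72% (95% CI 2.95 to 12.8) of its B cell-like cells had an Ngp UMI. With libraries 4, 5 and 6 taken singly, 3 of the 4 later genes were at least 4-fold higher in S100a8-high than in other cells in each library, and 3.51% of 5726 genes were. Ltf was the exception, through library 6. In libraries 1, 2, 3 and 7 it was 4 of 4, where 3.52% of 7986 genes were. No member was at least 4-fold lower in S100a8-high cells in either set, where 0.0175% and 8.94% of the genes were.

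Camp and Ngp differed between libraries in the share of cells that carried them. These genes were concentrated in few cells, and 100 cells held 94.1% of all Camp UMIs, 89.7% of Ngp UMIs and 88.5% of Ltf UMIs, but only 43.4% of Lcn2 UMIs. Most S100a8-high cells had no UMI of either Camp or Ngp, namely 90.2%, 98.8%, 95.5%, 50.7%, 95.5%, 93.9% and 93.7% in libraries 1 to 7. Cells in which Camp and Ngp together made up at least 1% of UMIs numbered 5, 2, 7, 110, 2, 0 and 6. In library 4 they were 35.9% of S100a8-high cells (95% CI 30.6 to 41.6). In library 6, 0 of 309 cells allows a share of up to 0.971%. In the remaining libraries the share ran from 0.473% to 6.10%, and the value of library 1 rests on 5 of 82 cells. No other cell reached 1%. Between 0.5% and 2% lay 23 cells in library 4 and 1 to 4 cells in each of the others. Since the cells of library 4 were deeper, each cell was thinned to 500 UMIs, with the few shallower S100a8-high cells left out (3 in library 3 and 1 in library 7). An Ngp UMI was then found in 39.9% of S100a8-high cells of library 4 (46.7% before thinning) and in 0.473% to 7.32% of those of the other libraries. Thinning does not bring back cells that a library lacks. The shallowest barcode had 5735 UMIs in library 4, 3439 and 3946 in libraries 5 and 6, and 304 to 501 in the others. Cells as shallow as most S100a8-high cells of libraries 1, 2, 3 and 7 are thus missing from library 4. The part of this in the shares was not tested.

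The cells with Camp and Ngp at 1% had Ltf and Lcn2 at pooled levels of the same order in library 4 and in the other libraries. The counting intervals did not overlap. In library 4 their Ltf stood at 8066 CPM (95% CI 7901 to 8234) and their Lcn2 at 12039 CPM (11837 to 12244). The 22 such cells of libraries 1, 2, 3, 5 and 7 had 9220 CPM of Ltf (8820 to 9634) and 12738 CPM of Lcn2 (12266 to 13223). Single libraries ran from 4885 to 12688 CPM for Ltf and from 10162 to 14653 CPM for Lcn2, wider apart than the counting error, but in libraries 2 and 5 nearly all Ltf came from 1 of 2 cells. Camp itself, which set the limit together with Ngp, stood at 26510 and 26309 CPM. Ngp stood at 26865 CPM (26563 to 27171) in library 4 and was higher, at 31419 CPM (30676 to 32175), in the 22 cells. Among the 110 cells of library 4, Camp took between 0.137% and 7.08% of a cell's UMIs, with a median of 2.61%, Ngp between 0.516% and 6.31%, and S100a8 between 4.30% and 28.0%. Cells had been clustered without the 8 genes. Cluster 15, a neutrophil-like cluster led by Ly6g, S100a8 and S100a9, held 100 of the 110 cells of library 4. It also held most S100a8-high cells of that library, 237 of 306. Most S100a8-high cells of libraries 1, 2, 3 and 7 were in another neutrophil-like cluster, led by Acod1, Il1r2 and Ptgs2, and only 27 of 1402 were in cluster 15. Of the 20 cells of these libraries with Camp and Ngp at 1%, 17 were among those 27. Cluster 15 was not made up of such cells alone, since in library 6 it held 242 S100a8-high cells of which 0 reached 1%.

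Ltf and Lcn2 went with Camp and Ngp in different ways. In library 4, Ltf stood at 2.67 CPM in the 155 S100a8-high cells with no Camp or Ngp UMI, had no UMI in the 27 cells with a share under 0.1%, and stood at 793 CPM in the 14 cells between 0.1% and 1% and at 8066 CPM in the 110 above. Lcn2 stood at 805, 1038, 6461 and 12039 CPM in the same 4 classes. Ltf was thus close to absent without Camp and Ngp, whereas Lcn2 was not. In cells with no Camp or Ngp UMI, Ltf was at most 11.5 CPM in any library, and Lcn2 stood at 660, 567, 700, 805, 702, 1327 and 1326 CPM in libraries 1 to 7. A UMI of Lcn2 was found in 51.2% to 87.9% of S100a8-high cells, depending on the library, against 0.633% to 2.52% of B cell-like cells. After thinning to 500 UMIs the shares of S100a8-high cells were 25.6%, 17.7%, 24.6%, 55.9%, 29.9%, 41.1% and 38.5%.

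**Figure D2:**
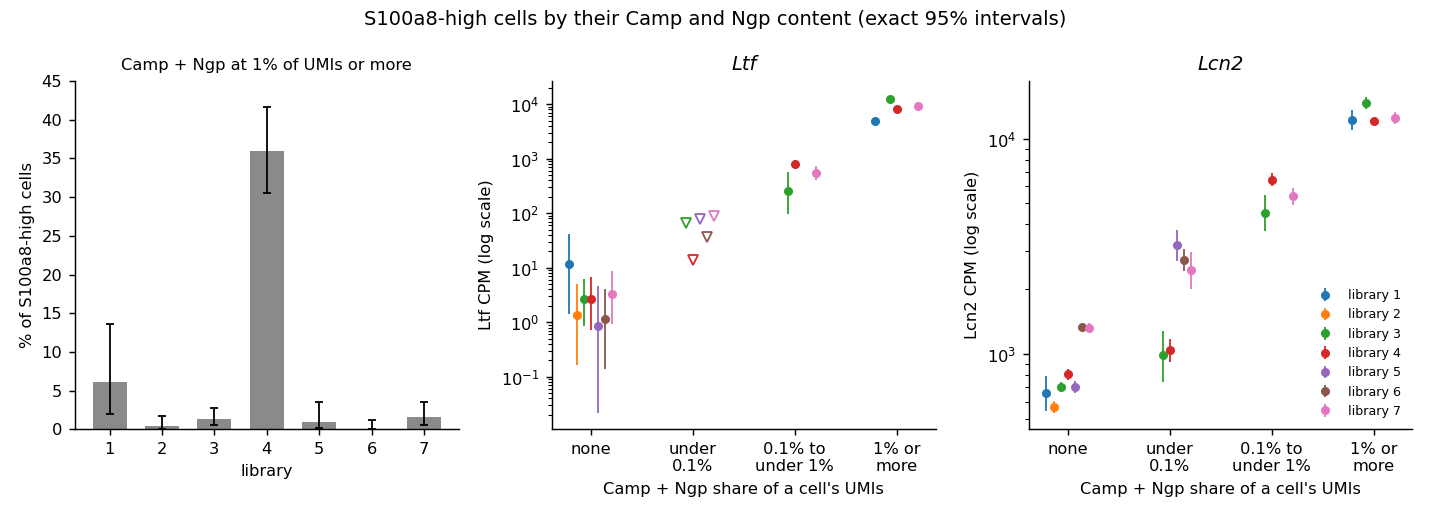
Left, share of S100a8-high cells of each library in which Camp and Ngp make up at least 1% of UMIs, with exact 95% intervals. Middle and right, Ltf and Lcn2 in CPM (log scale) in S100a8-high cells classed by their Camp and Ngp share, for classes of at least 5 cells, with open triangles at the upper end of the interval where there was no UMI. Library 4 stands at 35.9%, Ltf runs from 2.67 to 8066 CPM in library 4, and Lcn2 from 805 to 12039 CPM.

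The same limit split the S100a8-high cells of library 4 into 110 and 196 cells, which were compared for lists of granule and lineage genes. Values are CPM in the cells with Camp and Ngp at 1% beside CPM in the rest. Ratios are of these values, and the 4-fold limit and median folds were taken after adding 1 CPM. Of 4406 genes with at least 20 CPM in either group, 2.88% were at least 4-fold higher and 3.38% at least 4-fold lower, and the median fold was 0.865. These are cells of 1 library, so the folds describe that library. The limit was reached by only 6 cells of library 7 and 7 of library 3, and some ratios there went the other way. S100a8 and S100a9 were themselves 3.92 and 3.66 times higher in the 110 cells, at 159848 and 168485 CPM. The 4 globin genes were lower by a like factor, with ratios of 0.256 to 0.274. Since CPM are shares of a cell's RNA, the part of these abundant transcripts in the other ratios was not tested.

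Among the other specific granule genes, 5 of 10 were at least 4-fold higher in the 110 cells and 0 were lower, with a median fold of 4.38. Itgb2l, an integrin subunit, stood at 284 beside 15.9 CPM, a ratio of 17.8 (12.3 to 26.9). Cd177, a surface glycoprotein of neutrophils, stood at 907 beside 77.4 CPM. Mmp8, the neutrophil collagenase, stood at 2746 beside 462 CPM, and Chil3, a chitinase-like protein, at 2868 beside 576 CPM. Olfm4 was 26.2 times higher, but only 5.45% of the 110 cells had a UMI of it. Cybb, the catalytic subunit of the phagocyte NADPH oxidase, was 3.78 times higher (3.53 to 4.05), below the limit. Lysozyme (Lyz2) and haptoglobin (Hp) were nearly level, with ratios of 1.40 and 1.44. Of 8 genes of the gelatinase granules and secretory vesicles 0 passed the limit in either direction, with a median fold of 2.07. Fpr2, a formyl peptide receptor, and Mmp25, a membrane-bound metalloproteinase, came closest, both at 3.99. Mmp9, the gelatinase itself, was 2.54 times higher (2.36 to 2.73). In libraries 7 and 3 the Mmp9 ratios were 0.730 (0.612 to 0.864) and 1.13 (0.941 to 1.34). Itgb2l was higher in both, with ratios of 56.7 and 194.

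Of 6 mature neutrophil genes compared, 1 was at least 4-fold higher and 2 at least 4-fold lower. Ly6g, the surface marker used to sort mouse neutrophils, stood at 871 beside 63.6 CPM. Il1b, which encodes interleukin-1 beta, stood at 78.5 beside 1026 CPM, and the lectin receptor Clec4d at 41.1 beside 300 CPM. Csf3r, the receptor of granulocyte colony-stimulating factor, stood at 210 beside 782 CPM, a ratio of 0.268 (0.233 to 0.308). Cxcr2, the chemokine receptor of circulating neutrophils, had a ratio of 0.550 (0.488 to 0.618). G0s2 went the other way, at 186 beside 74.2 CPM, a ratio of 2.50 (2.01 to 3.12). Among 6 transcription factors, Cebpe, which is needed for specific granules, was the only one past the limit, at 314 beside 22.8 CPM. Spi1, which encodes PU.1, had a ratio of 0.901 and Runx1 0.948, with intervals that include 1. Cebpb was lower, at 151 beside 433 CPM. In libraries 7 and 3, G0s2 was lower instead, with ratios of 0.0412 (0.0248 to 0.0644) and 0.282 (0.229 to 0.343). Ly6g was higher in both, with ratios of 8.88 and 12.1, and Il1b lower, with 0.00791 and 0.0118.

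Of 4 genes that serve primary granules, 1 was at least 4-fold higher and 2 at least 4-fold lower. Serpinb1a, an inhibitor of neutrophil serine proteases, stood at 530 beside 43.5 CPM. Ctsc, the protease that activates them, stood at 48.2 beside 227 CPM, and Srgn, the core protein of serglycin on which granule proteins are packed, at 178 beside 1085 CPM. Of 7 cycling genes 2 had enough counts and 0 passed the limit. Mki67 had a ratio of 0.889 (0.542 to 1.43) and Pcna 0.337 (0.136 to 0.729). Mki67 was found in 7.27% of the 110 cells. Of 6 monocyte genes 2 were at least 4-fold lower, F13a1 at 46.4 beside 289 CPM and Ccr2 at 88.4 beside 462 CPM. Irf8, Csf1r and Fn1 were also lower, with ratios of 0.545, 0.262 and 0.340. Ly6c2 went the other way, at 771 beside 495 CPM (ratio 1.56, 1.42 to 1.71), and was found in 97.3% of the 110 cells and 46.9% of the 196. Of 4 progenitor genes 0 had enough counts. Kit had 12 UMIs in the 110 cells and 2 in the 196 (ratio 10.1, 2.25 to 92.9). Flt3 had 0 and 9 UMIs, Sox4 had 1 and 0, and Cd34 had 0 in both. Of the transcription factors with too few counts, Myb had 13 and 2 UMIs and Gfi1 had 5 and 0. The part of monocyte RNA in the ratios of the granule genes was not tested. Elane had 0 UMIs in the 110 cells and 23 in the 196, of which 1 cell in a monocyte-like cluster held 19. In library 7, Mki67 stood at 483 CPM in the 6 cells, of which 33.3% had a UMI, and had 0 UMIs in the rest. In library 3 it stood at 213 beside 7.10 CPM, and 42.9% of the 7 cells had a UMI. Ctsc was 6.13 times higher (4.03 to 9.15) in library 7, where 33.3% of the 6 cells had a UMI. In library 3, Ctsc had 0 UMIs in the 7 cells and 180 in the rest.

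**Figure D3:**
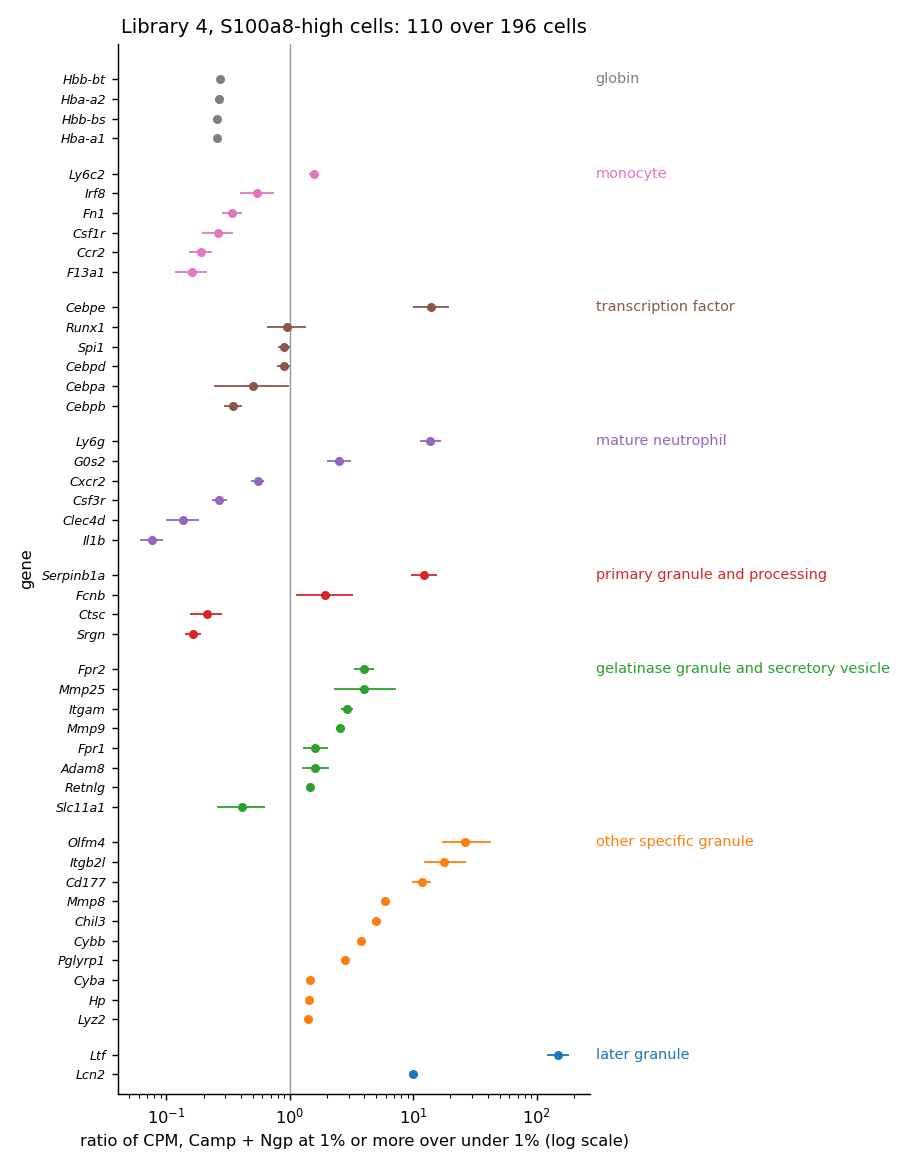
Ratio of CPM (log scale) between the 110 S100a8-high cells of library 4 with Camp and Ngp at 1% of UMIs and the other 196, for listed genes with at least 10 UMIs in both groups, with exact 95% counting intervals. Ltf (148), Olfm4 (26.2) and Itgb2l (17.8) lie far to the right, Il1b (0.0766) and Clec4d (0.137) to the left, and all 4 globin genes near 0.26.

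Elane, Mpo and Ctsg were close to absent from the S100a8-high cells of all libraries, and Prtn3 was low. Elane had 23 UMIs in library 4 (7.65 CPM, 95% CI 4.85 to 11.5) and 0 in the S100a8-high cells of the other 6. Of these 23 UMIs, 19 were in 1 cell, in a monocyte-like cluster, with S100a8 at 1.20% of UMIs, and without it Elane in library 4 stood at 1.34 CPM. Mpo had 4 UMIs in 4 S100a8-high cells of all 2218, and Ctsg had 2 UMIs in 2 cells. For Elane, 0 UMIs in the 1402 S100a8-high cells of libraries 1, 2, 3 and 7 allows a level of up to 0.584 CPM. Prtn3 was found in more cells, with 4.75, 2.67, 2.95, 30.3, 1.58, 3.22 and 4.28 CPM in libraries 1 to 7. In library 4, 9.80% (6.71 to 13.7) of S100a8-high cells had a UMI of it, against 0.752% to 1.94% in the others. Thinned to 1500 UMIs, with shallower cells left out, the share of library 4 was 3.59% (1.81 to 6.34), against 0% to 0.847% in the others. In the B cell-like cells of library 4 it was then 0 of 119 (0 to 3.05%). Thinned to 500 UMIs, the share of S100a8-high cells was 0.654% (0.0793 to 2.34) in library 4, from 2 cells. It was 0% to 0.498% in the others, so that library 4 no longer stood apart at this depth. Library 4 had 91 of the 116 UMIs, of which the same cell held 35, and stood at 18.75 CPM (14.2 to 24.3) without it. Its interval overlapped that of library 1, where 1 UMI was counted. The intervals of the other 6 libraries, with 1 to 6 UMIs each, all overlapped. Over all libraries, 17.4% of the cells of neutrophil-like cluster 30 had a Prtn3 UMI, against 1.75% in cluster 15. Median depths were 10740.5 and 6482 UMIs. Thinned to 1500 UMIs, the shares were 5.14% (2.38 to 9.54) and 0.678% (0.22 to 1.57). In library 4 these clusters held 52 and 237 S100a8-high cells. The part of each cluster in the Prtn3 UMIs of S100a8-high cells was not tested. The 4 genes together stood at 20.6 CPM (17.1 to 24.5) in S100a8-high cells of libraries 4, 5 and 6 and at 3.70 CPM (2.23 to 5.77) in those of libraries 1, 2, 3 and 7. The first value rests on library 4 and on that 1 monocyte-like cell, which held 56 of its 126 UMIs. It was 2.88 CPM without library 4 and 11.5 CPM (8.93 to 14.5) without the cell. In library 4, Prtn3 stood at 105 CPM in the 43 cells with S100a8 between 1% and 2%, but at 34.1 CPM (19.5 to 55.4) without the cell, which is level with the 36.2 CPM of those between 2% and 5%. Between 5% and 10% it stood at 7.67 CPM, from 4 UMIs. In libraries 4, 5 and 6, 0 of 12762 cells had primary granule genes at 1% of UMIs, which allows a share of up to 0.0235%, and 125 cells (0.979%, 95% CI 0.816 to 1.17) had later granule genes at 1%. Without library 4 the second share was 0.0512%.

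Most of the Elane, Mpo and Ctsg counted in the whole matrix came from 2 cells, both of library 3 and neither S100a8-high. Over all kept cells Elane had 669 UMIs in 38 cells, Mpo 550 in 27 and Ctsg 487 in 56. The 2 cells held 88.6%, 95.1% and 86.4% of them. The first, of 42883 UMIs, was deeper than 99.6% of its library and had 487 Elane, 314 Mpo, 479 Prtn3 and 334 Ctsg UMIs, together 3.76% of its RNA. It also had 96 UMIs of Ms4a3 and 10 of Prss57, which mark granulocyte and monocyte progenitors, 26 of the progenitor factor Myb and 61 of the cycling genes. Other genes of these lists were low in it, with 6 UMIs of Cd34, 2 each of Kit and Fcnb, 1 each of Ctsc and Cebpe and 0 of Gfi1. The cell fell in a monocyte-like cluster, with 61 UMIs of Ly6c2 and 0 of Ccr2, F13a1, Irf8 and Csf1r. Camp, Ngp and Ltf had 0 UMIs in it, and S100a8 took 0.0933%. It is the one cell of the matrix in which primary granule genes reached 1%. The second, of 65740 UMIs, had 106 Elane, 209 Mpo, 184 Prtn3 and 87 Ctsg UMIs beside 3624 UMIs of Sftpc, and was called a doublet by Scrublet. Without both cells, Elane and Mpo in the other cells of library 3 went from 14.02 and 12.4 CPM to 0.164 CPM each, Ctsg from 10.1 to 0.234 CPM and Prtn3 from 19.5 to 4.01 CPM.

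Prtn3 was found in many more cells than the other primary genes. It had 2322 UMIs in 927 cells, and 882 of these cells had no UMI of Elane, Mpo or Ctsg. The other genes were rare, with a UMI of Elane, Mpo or Ctsg in only 112 kept cells. Of the 38 cells with Elane, 26 also had Prtn3, against 927 of all 33618 kept cells. Classical monocyte-like cells held 74.1% of the Prtn3 UMIs. Cluster 8, a monocyte-like cluster led by Vcan, F13a1 and Serpinb2 with 916 of its 1235 cells from library 4, had 57.6 CPM of Prtn3 (53.8 to 61.6), and 34.4% of its cells had a UMI. Cluster 14, a monocyte-like cluster with most of its 829 cells from libraries 1, 2 and 3, had 35.8 CPM (31.6 to 40.4) and 20.1% of cells. At 1500 UMIs per cell the shares were 6.65% (5.32 to 8.18) and 4.31% (3.02 to 5.94). Fibroblast-like cells had 7.64 CPM and 6.87% of cells, 1.16% after thinning. In B cell-like cells, which should lack the gene, cluster 0 had 0.116% and cluster 11 had 0 of 1040 cells, which allows a share of up to 0.288%. These clusters hold few cells of library 4, whose own 119 B cell-like cells had a Prtn3 UMI in 1, or 0.840% (0.0213 to 4.59). The median depths were 11461 UMIs in cluster 8 and 5117 and 3655 UMIs in the B cell-like clusters. By library, the other cells had 4.07, 2.90, 19.5, 29.4, 2.84, 0.949 and 2.38 CPM. Library 4 was the highest, and library 3 owed its place to the 2 cells above. Of the primary granule UMIs of libraries 4, 5 and 6, 83.6% were in cluster 8 (63.5 CPM, 59.4 to 67.7). Cluster 30, a neutrophil-like cluster of 76 cells in these libraries, was level with it, at 63.2 CPM (48.7 to 80.7), and held 5.89% of the UMIs.

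Within cluster 8 of library 4, the 178 cells with at least 2 Prtn3 UMIs were set beside the 562 with none. Elane stood at 18.8 CPM (13.7 to 25.02) in the first and at 1.09 CPM (0.439 to 2.25) in the second, and 2 cells held 19 and 9 of the 46 Elane UMIs behind the first value. Fcnb, a ficolin of immature myeloid cells, was 3.21 times higher (2.12 to 4.89), Lcn2 2.40 times (2.03 to 2.84), S100a8 2.22 times (2.05 to 2.41) and Serpinb1a 2.08 times (1.69 to 2.56). The cell with 19 Elane UMIs also held 230 of the 1138 S100a8 UMIs of the 178 cells. Camp, Ngp and Ltf had ratios of 1.10, 1.03 and 0.784, with intervals that include 1. Csf1r, the receptor that marks the monocyte line, was lower, with a ratio of 0.724 (0.674 to 0.777). The cells with Prtn3 were deeper, with medians of 13220 against 10876 UMIs, and the part of depth was not tested. Ctsg had a site of its own. In the basophil or mast cell-like cluster it stood at 33.8 CPM (18.0 to 57.8) and was found in 12.1% of 91 cells, where Elane and Mpo had 0 UMIs.

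**Figure D4:**
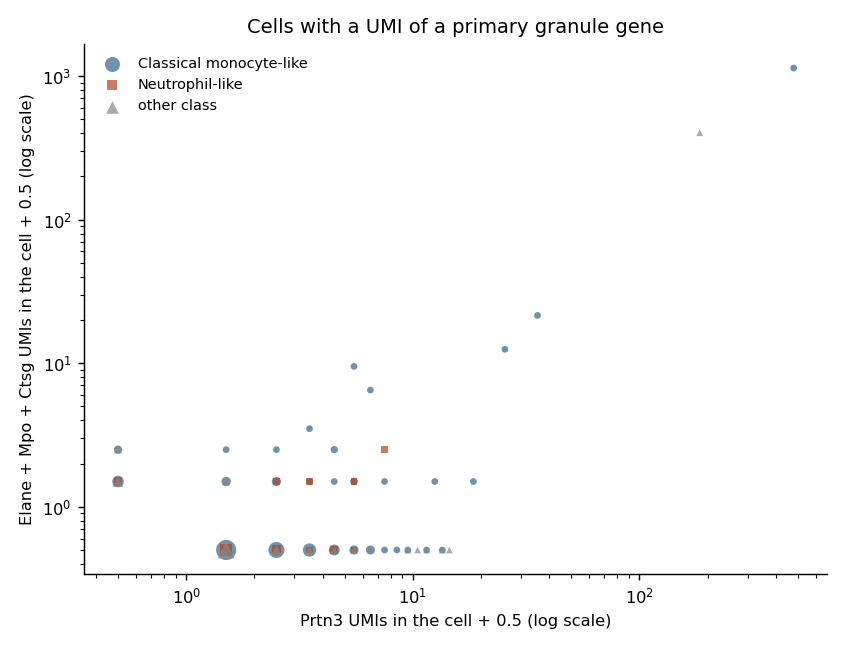
UMIs of Elane, Mpo and Ctsg together against UMIs of Prtn3 in each cell that had any of them, both on a log scale after adding 0.5, by cell class, with larger points for more cells. The 2 cells of library 3 lie at the upper right, and the row at the bottom holds 882 cells with Prtn3 and none of the other 3 genes.

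Outside S100a8-high cells, Lcn2 was highest in epithelial cells. Alveolar type 2 cell-like cells had 2664 CPM of Lcn2 (2625 to 2703), with a UMI in 90.2% of 408 cells, and held 37.8% of all Lcn2 UMIs. By library they had 6793, 1705, 1011 and 5443 CPM in libraries 1, 2, 3 and 7. The counting intervals did not overlap, but the UMIs were unevenly spread over cells. In library 7, 1 cell held 1180 of the 3893 Lcn2 UMIs of the type 2 cell-like cells that were not S100a8-high. A difference between libraries cannot be read from these intervals alone. Fibroblast-like cells had 440 CPM of Lcn2 in library 1 and 40.1, 8.02 and 54.0 CPM in libraries 2, 3 and 7. In library 2, 1 cell held 396 of the 506 UMIs, and the level was 8.74 CPM without it. In library 1 it was 372 CPM without the richest cell. An endothelial-like cluster of 139 cells, led by Ccl21a, Mmrn1 and Prox1, had 333 CPM, with a UMI in 67.6% of its cells. Lcn2 in the other cells was lower in each of libraries 4, 5 and 6 (23.4, 3.24 and 5.27 CPM) than in each of libraries 1, 2, 3 and 7 (179, 80.5, 61.5 and 133 CPM). Of the 3 members compared it was the only one. Of 7786 genes 71.4% were lower in this way and 2.25% higher, and libraries 4, 5 and 6 had none of the type 2 cells. In library 4, 86.2% of the Lcn2 UMIs of other cells were in classical monocyte-like cells. Ltf was found in the cluster named for club cells, the secretory cells of the airways, at 241 CPM and in 16.2% of 308 cells. The leading genes of this cluster also included Ccdc153 and Tmem212, markers of ciliated cells, so club and ciliated cells were not told apart in it. Ltf was unevenly spread, since 1 cell of library 1 held 909 of the 987 Ltf UMIs of the other cells of that library, and the level of the cluster was 106 CPM without it. In library 5, 1 cell of this cluster held 120 of 124. The 3 cells of this cluster in libraries 5 and 6 had 0 UMIs of Scgb1a1, Scgb3a2 and Cyp2f2, which mark club cells, so the name is not borne out for them. Of 21 other cells with later granule genes at 1% of UMIs, 18 were alveolar type 2 cell-like, 1 was club cell-like and 2 were fibroblast-like, and none had a Camp or Ngp UMI. The later genes in the other cells of libraries 1, 2, 3 and 7 stood at 116 CPM, but at 64.6 CPM when cells beyond 2 standard deviations in UMIs or genes were left out.

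**Figure D5:**
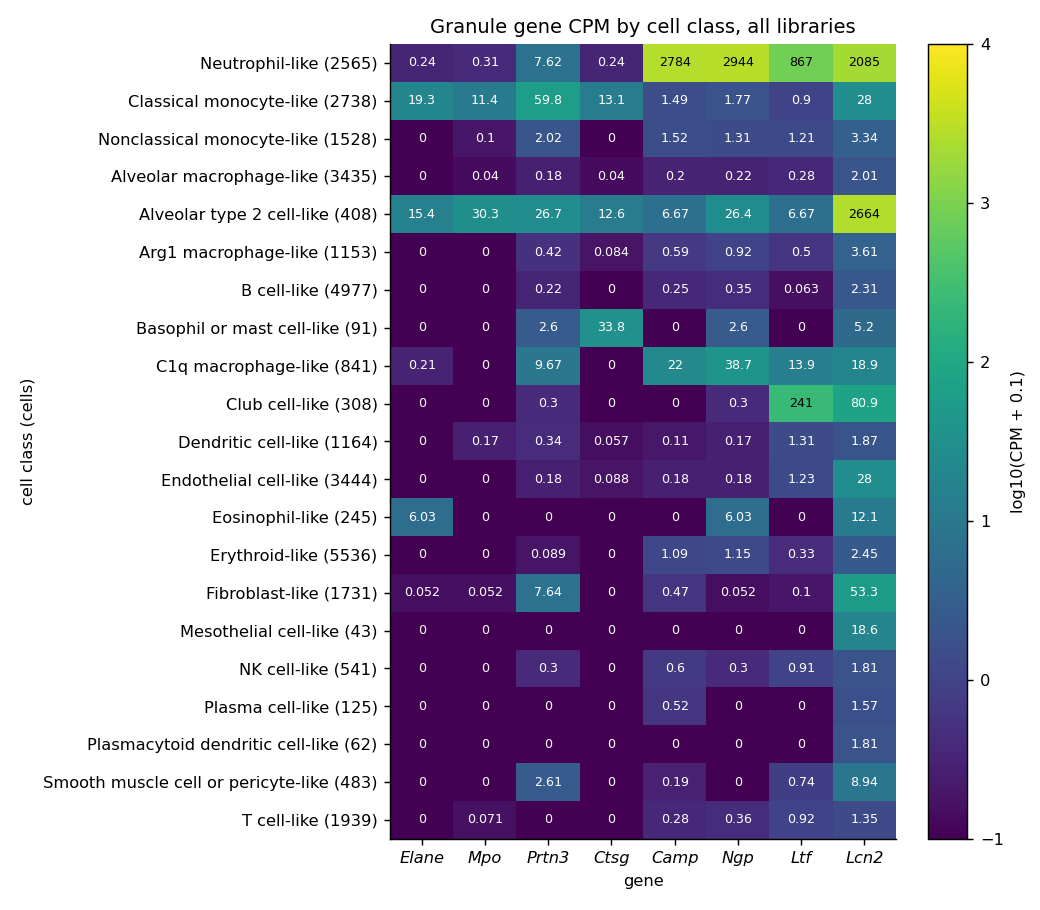
Level in CPM of each gene in each named cell class over all libraries, coloured by log10 of CPM plus 0.1, with the number of cells in parentheses. Camp and Ngp are high in neutrophil-like cells alone (2784 and 2944 CPM), Lcn2 also in alveolar type 2 cell-like cells (2664 CPM) and Ltf in club cell-like cells (241 CPM, 106 CPM without 1 cell). The Elane, Mpo and Ctsg values of monocyte-like and type 2 cell-like cells come largely from 2 cells.

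Across 97 groups of at least 50 cells of 1 cluster in 1 library, the 8 genes fell apart by set, as a description with no test, since the groups share libraries and depth. Camp and Ngp had a Pearson r of 0.94, Camp and Ltf 0.79, and Ngp and Ltf 0.81. Lcn2 followed them less, with 0.52 to 0.62. Elane and Ctsg had 0.91 and Elane and Mpo 0.86, values that a few cells or UMIs in few groups can set. The 2 cells of library 3 described above held 88.6%, 95.1% and 86.4% of the Elane, Mpo and Ctsg UMIs. Their part in these values was not tested. Prtn3 had 0.54 to 0.62 with the other primary genes. Between the sets, r ran from -0.07 to 0.35. Among 12707 genes compared, the closest to Camp and Ngp was Ly6g (0.71 and 0.82). The closest to Ltf was Olfm4 (0.61), and those closest to Lcn2 were Chil1 (0.85), Steap4 (0.81) and Slco4c1 (0.79). The closest to Prtn3 were Abca6 (0.74), F13a1 (0.69) and Abca9 (0.67). The highest values for Elane, Mpo and Ctsg were 0.34, 0.37 and 0.37.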

How the data were processed

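Single-cell RNA from mouse lungs was measured by droplet sequencing. The deposited values are whole UMI counts that the authors made with Cell Ranger 3.1.0 (mm10, per the labels' processing notes), with STAR as the aligner and, per the methods, with reads down-sampled to even out the libraries where required. Totals were 29701569 to 79439569 UMIs per library. Of 31053 genes, 30934 were matched to GENCODE M21.

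Cells with over 10% mitochondrial UMIs were left out. Levels are pooled UMIs of a gene per 1000000 UMIs, with exact Poisson intervals, and shares have exact binomial intervals, at 95%. A count of 0 was read as allowing 3 counts. The 8 members were left out of clustering. The 2000 most variable genes gave 30 principal components, and a graph of 20 neighbours was clustered by the Leiden method at a resolution of 0.8 (scanpy 1.11.5, leidenalg 0.10.2, python 3.11.15). Libraries were not aligned. Of 45 clusters, 41 were named from 26 marker lists, and 4 were left unnamed after their leading genes were seen. Scrublet called 573 doublets, of which 421 and 130 were in libraries 2 and 3. It called 4, 14 and 4 in libraries 1, 5 and 7, far below the expected rate of 5%. It called 0 in libraries 4 and 6, where it is read as not having worked. Leaving its calls out therefore says little about doublets outside libraries 2 and 3. Calls were kept in. Members, lists and limits were chosen with earlier results of these data known. Genes named are the members, all of the listed genes that the text needs and, for each member, the 3 most similar genes. Figures were drawn with matplotlib 3.10.9. The steps were tested on simulated data. Alternatives to the filters, limits, depth and clustering were run, and each library was left out in turn.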

Additional observations from a re-analysis of the deposited data

Results flagged for a closer look

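Of 16 values compared across the 7 libraries by Dixon's criterion, 13 had 1 library that stood apart from the other 6. The criterion flags about 1 in 20 groups by chance, and the libraries are not replicates of 1 group. In S100a8-high cells, library 4 stood apart for the later genes, with 9936 CPM of Camp, 10200 CPM of Ngp, 3040 CPM of Ltf and 5247 CPM of Lcn2. It was also marked for Prtn3 (30.3 CPM), Elane (7.65 CPM) and Ctsg (0.665 CPM, from 2 UMIs). For these 3 genes its counting interval overlapped that of library 1. For Elane and Ctsg the other 6 libraries had no UMI, so that any UMI in library 4 would be marked, and the 0 of library 1 allows up to 14.2 CPM. The marks for Elane and Ctsg are therefore not read as a difference. For Prtn3, library 1 had 1 UMI, and an interval that wide cannot show whether the levels differ. In library 4, 1 monocyte-like cell held 35 of the Prtn3 UMIs, and this mark was not read as a difference either. In the other cells, library 4 stood apart for Camp (3.57 CPM) and Ngp (3.95 CPM). Library 3 stood apart for Elane (14.02 CPM), Mpo (12.4 CPM) and Ctsg (10.1 CPM), values that come from 2 cells. Library 1 stood apart for Ltf (21.9 CPM), where 1 cell held 92.1% of the UMIs.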

How the results depend on the processing

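No paired analysis was possible because no library could be tied to a sample and no test was run. Values were read as moved when they left the 95% counting interval of the reported value, and direction was not at issue. The primary level in S100a8-high cells of libraries 4, 5 and 6 (20.6 CPM) was 9.97 CPM with S100a8 at 2%, 10.99 CPM with S100a8 and S100a9 at 2% and 10.97 CPM as a mean of cells, and 2.88 to 27.9 CPM with libraries left out in turn, lowest without library 4. The later level in these cells (14736 CPM) was 15361 CPM at a mitochondrial limit of 5%, 14892 CPM with limits on UMIs and genes, 13457 and 17232 CPM with S100a8 at 0.5% and 2%, 14600.5 CPM with S100a8 and S100a9 at 2%, 11246.5 CPM as a mean of cells, and 1559 to 20515 CPM with libraries left out, lowest without library 4. In S100a8-high cells of libraries 1, 2, 3 and 7 the later level (4162 CPM) was 4269 CPM at 5% mitochondrial UMIs, 4420.0 CPM without Scrublet calls, 3594 and 5424 CPM with S100a8 at 0.5% and 2%, 4065 CPM with both S100 genes at 2%, 2037 CPM as a mean of cells, and 3256 to 5181 CPM with libraries left out. The primary level there (3.70 CPM) stayed within its interval under all alternatives run. In other cells, the primary level of libraries 4, 5 and 6 (11.2 CPM) was 13.4 CPM at 5% mitochondrial UMIs, 11.9 CPM with S100a8 at 2%, 6.34 CPM as a mean of cells, and 2.08 to 16.3 CPM with libraries left out, lowest without library 4. The later level of other cells in libraries 1, 2, 3 and 7 (116 CPM) was 80.2 CPM at 5% mitochondrial UMIs, 64.6 CPM with limits on UMIs and genes, 64.5 CPM as a mean of cells, and 90.5 to 136 CPM with libraries left out. The share of cells with later genes at 1% of UMIs (0.979%) was 1.33% at 5% mitochondrial UMIs, 1.21% at a class limit of 0.5%, and 0.0512% to 1.56% with libraries left out, lowest without library 4. No cell of libraries 4, 5 and 6 reached the primary limit under any alternative run. The share of primary UMIs in the cluster of highest level (83.6%) was 5.89% at resolutions of 0.4 and 1.5, where the neutrophil-like cluster of 76 cells came first by a small margin, 88.6% with the members kept in and 89.7% with limits on UMIs and genes. Chosen after seeing the data, the primary level in other cells of library 3 (56.0 CPM) was 4.57 CPM without the 2 cells at 0.5% or more. Also chosen after seeing the data, the primary level in S100a8-high cells of libraries 4, 5 and 6 was 11.5 CPM without 1 monocyte-like cell of library 4, and the Lcn2 level in fibroblast-like cells of library 2 was 8.74 CPM without 1 cell. The cause of these changes was not tested.

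Low counts limit Elane, Mpo and Ctsg, whose levels in S100a8-high cells rest on 23, 4 and 2 UMIs. Libraries differ in depth, globin content and cell makeup, and none of these can be told apart from the animal or group.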
